A study of Brassica napus with 27 samples.

Results

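The genes described as tryptophan synthase in leaves of oilseed rape (Brassica napus) were followed together with the flavin-containing monooxygenase gene BnaA09g47340D, after treatment with the auxinic herbicides halauxifen-methyl (Hal) and picloram (Pic). Of 104573 genes in the deposited table, 4 were taken. The tryptophan synthase genes BnaC09g31260D, BnaA10g09090D, and BnaA03g48400D were taken by their description, and BnaA09g47340D was chosen by its FPKM values, for a level that went up after Hal treatment. Its values in Hal and control leaves are therefore given as a description without a test. A total of 6 genes carry the description tryptophan synthase, and the other 3 were at or near zero in leaves. BnaA09g09550D had 31 reads over all libraries and at most 0.208 FPKM, BnaCnng18030D had 22 reads and at most 0.248 FPKM, and BnaCnng28880D was listed at 0 in each library. FPKM values are reads scaled to the gene length in kilobases and to a size factor of the library. That factor was 0.751 to 1.25 times the reads on genes, so it is not the depth itself.

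Leaves of the cultivar Visby at growth stage BBCH11 received drops of Hal (0.5 µg), of Pic (2.4 µg), or of a solvent with DMSO, Triton X-100, and NaOH, and were frozen 2, 48, or 96 h later. Each of the 9 groups held 3 libraries from different plant material, grown in pots of 4 plants, and whole-leaf RNA was sequenced. The controls were given as untreated in one label and as treated with this solvent in the design text, and the doses were given per leaf, per µl, or per plant. Hal and Pic were applied at different doses, so Hal against Pic compares both treatments as applied and not both compounds at 1 dose. In whole leaves, fewer cells that use a gene and less RNA of it per cell cannot be told apart.

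Tryptophan is made in the plastid from chorismate, the end product of the shikimate pathway. Anthranilate synthase, a phosphoribosyltransferase, an isomerase, and indole-3-glycerol phosphate synthase act in turn, and tryptophan synthase joins indole with serine as the last step. The enzyme has an alpha chain, which releases indole, and a beta chain, which binds pyridoxal phosphate and forms tryptophan. Tryptophan is also the main source of the auxin indole-3-acetic acid. In Arabidopsis, aminotransferases turn it into indole-3-pyruvate, and the YUCCA enzymes, a branch of the flavin-containing monooxygenases, turn this into auxin. Other members of that enzyme family oxidize sulfur in glucosinolates or act in pathogen defence in Arabidopsis, and the description of BnaA09g47340D does not tell which branch it belongs to.

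BnaC09g31260D (identifier GSBRNA2T00009628001) lies on scaffold LK032101 from 63933 to 66148 on the minus strand and has a gene length of 1738 bases. BnaA10g09090D (GSBRNA2T00095360001) lies on scaffold LK032072 from 7316 to 9490, also on the minus strand, with 1725 bases. BnaA03g48400D (GSBRNA2T00085967001) lies on scaffold LK032681 from 60968 to 63302 on the minus strand, with 1768 bases. BnaA09g47340D (GSBRNA2T00035401001) lies on scaffold LK032192 from 52180 to 54765 on the plus strand, with 1700 bases. These positions are those of the deposited table, and its genome build was not given in the sources used here. All 3 tryptophan synthase genes were annotated with the domain PALP, the pyridoxal-phosphate dependent fold of the beta chain, which 69 genes of the table carry. BnaA09g47340D was annotated with the domain FMO-like. Rapeseed holds an A and a C genome with similar gene copies, so reads of near-identical copies may have been divided between them, and how the authors counted such reads was not given in the sources used here.

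The libraries held 15565637 to 19692242 reads on genes, and 46395 genes were tested, namely those that reached 1 FPKM in 3 or more of the 27 libraries. Replicate 3 of Hal at 2 h had reads on the fewest genes, 53523, while the highest number was 60785. The defining leaf genes were present: the summed FPKM of 47 genes for chlorophyll a-b binding proteins was 84153 to 159899 in control, 76368 to 120507 in Hal, and 79069 to 142167 in Pic libraries. For 11 genes of the small chain of Rubisco, the carbon-fixing enzyme, it was 27826 to 48569, 11407 to 30365, and 21925 to 26285, so the Pic range lay below the control range, and the Hal range overlapped with its lower end. The 16 oleosin genes, seed oil-body proteins, summed to at most 1.38 FPKM in any library, and no gene was described as cruciferin, napin, or pollen protein. Whether the leaf genes that move with treatment play a part in the results was not tested.

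The C09 and A10 genes were among the more abundant transcripts, above 92.0% and 90.2% of tested genes by mean FPKM, and the A03 gene was above 80.2%. They had 605 to 1168, 441 to 1052, and 93 to 623 reads per library, so counting error weighs most for the A03 gene. BnaA09g47340D was above 10.7% of tested genes and had 0 to 159 reads. It passed the filter through 5 libraries of Hal at 48 and 96 h, the groups in which it was high.

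**Figure D1:**
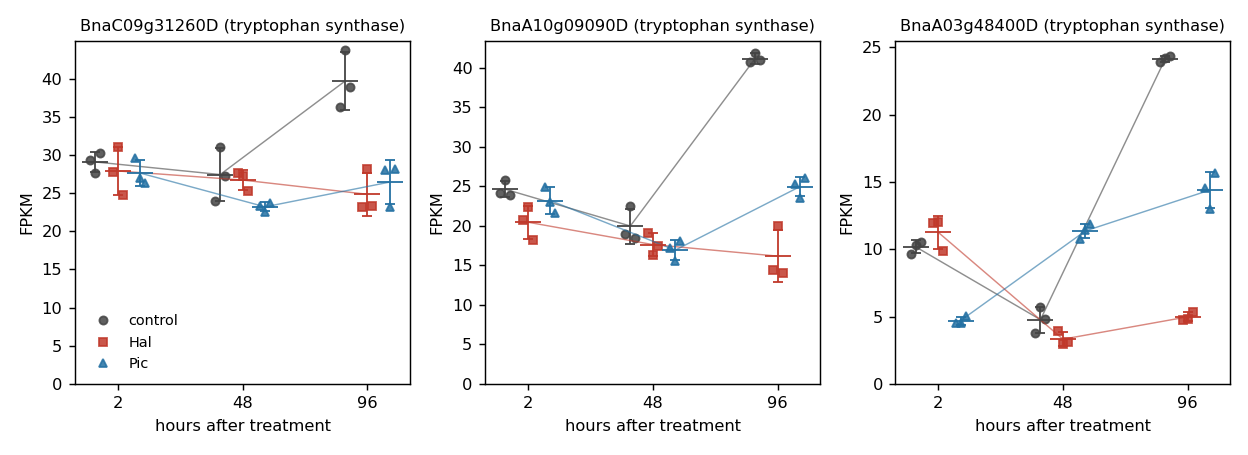
FPKM of the tryptophan synthase genes (y axis) against hours after treatment (x axis) for control (circles), Hal (squares), and Pic (triangles). Points are libraries, bars the mean and SD (n = 3); the control libraries of 96 h lie above all others in each panel, from 36.3 to 43.8, from 40.7 to 41.9, and from 23.9 to 24.4 FPKM.

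In control leaves, all 3 tryptophan synthase genes were highest at 96 h. BnaC09g31260D was measured at 29.4, 27.6, and 30.3 FPKM at 2 h, at 24.0, 31.1, and 27.2 at 48 h, and at 36.3, 43.8, and 38.9 at 96 h. BnaA10g09090D had 24.1, 25.8, and 23.9 FPKM at 2 h, 18.97, 22.5, and 18.4 at 48 h, and 40.7, 41.9, and 40.9 at 96 h. BnaA03g48400D had 9.66, 10.3, and 10.6 FPKM at 2 h, 3.79, 5.73, and 4.78 at 48 h, and 23.9, 24.2, and 24.4 at 96 h. For each gene the libraries of 96 h did not overlap with those of either earlier time, and 37.7% of tested genes had no overlap between 48 and 96 h.

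Fold changes are differences of log2(FPKM + 1) from 1 limma fit over all 27 libraries, with Benjamini-Hochberg adjusted p-values over the tested genes and a threshold of 0.05. Standard errors were 0.10 for the C09, 0.11 for the A10, and 0.11 for the A03 gene. From 48 to 96 h in control leaves, BnaC09g31260D rose by 0.52 (adjusted p = 4.94e-04), BnaA10g09090D by 1.01 (adjusted p = 1.49e-07), and BnaA03g48400D by 2.14 (adjusted p = 5.32e-13). Thus 3 of 3 genes were upregulated, where 17.5% of all tested genes were. From 2 to 48 h, the A03 gene fell by 0.97 (adjusted p = 3.85e-07) and the A10 gene by 0.29 (adjusted p = 0.0437), while 13.5% of tested genes were downregulated. The call for the A10 gene did not hold when single libraries were left out. It was lost without replicate 1, 2, or 3 of the 2 h control (adjusted p = 0.0771, 0.132, and 0.0687) and without replicate 1 or 3 of the 48 h control (adjusted p = 0.120 and 0.159), with values from -0.31 to -0.24. It was also lost without a filter on low values (adjusted p = 0.0560), and with the compared libraries alone (adjusted p = 0.0737). The C09 gene changed by -0.09 (adjusted p = 0.571).

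After Hal treatment, the tryptophan synthase genes did not reach the high control level of 96 h. At 96 h after Hal, BnaC09g31260D was at 23.1, 28.1, and 23.3 FPKM, below each control library. BnaA10g09090D was at 14.4, 19.9, and 14.1 FPKM, and BnaA03g48400D at 4.75, 4.83, and 5.35 FPKM, again with no overlap with the control. The mean control level was 1.60 times the Hal level for the C09 gene, 2.55 times for the A10 gene, and 4.85 times for the A03 gene.

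In the test at 96 h, BnaC09g31260D fell by 0.66 (adjusted p = 7.97e-06), BnaA10g09090D by 1.31 (adjusted p = 1.99e-10), and BnaA03g48400D by 2.07 (adjusted p = 7.12e-14). All 3 were downregulated, as were 30.2% of tested genes. The groups did not overlap for 64.0% of tested genes, so the lack of overlap on its own is common at this time. The deposited values carry a median-ratio scaling, and with libraries brought to equal totals of reads instead the median of all tested genes in this contrast moves from 0.01 to 0.43. With that scaling the C09 gene was at -0.03 and its call was lost (adjusted p = 0.815), although it stayed below the median of all genes. The A10 and A03 genes stayed downregulated.

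At 2 h after Hal, none of the 3 genes passed the test, which 21.5% of tested genes did. BnaC09g31260D had 27.8, 31.1, and 24.8 FPKM (-0.06, adjusted p = 0.728). BnaA10g09090D had 20.8, 22.4, and 18.2 FPKM (-0.26, adjusted p = 0.0932), each below the control libraries, as for 35.7% of tested genes with no overlap in either direction. BnaA03g48400D had 12.0, 12.0, and 9.85 FPKM (0.13, adjusted p = 0.461). Without the Hal library of replicate 3, which had the fewest genes, the values were 0.02, -0.18, and 0.22, and none passed.

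At 48 h after Hal, 1 gene passed. BnaA03g48400D had 3.92, 2.93, and 3.09 FPKM, with 1 library inside the control range, and fell by 0.41 (adjusted p = 0.00398). This call did not hold with equal totals of reads (-0.10, adjusted p = 0.464) or with the compared libraries alone (adjusted p = 0.0869). BnaC09g31260D had 27.6, 27.3, and 25.2 FPKM (-0.03, adjusted p = 0.832), and BnaA10g09090D had 19.1, 16.3, and 17.4 FPKM (-0.17, adjusted p = 0.210). With equal totals the direction turned for both, to 0.34 for the C09 gene (adjusted p = 0.00393) and 0.20 for the A10 gene (adjusted p = 0.0975), where the median of all genes was 0.26. Of all tested genes, 25.1% were downregulated at this time.

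After Pic treatment, BnaA03g48400D changed at every time and in both directions. At 2 h it had 4.52, 4.54, and 5.03 FPKM, and each control library lay above these, where 36.5% of tested genes had no overlap in either direction. At 48 h it had 10.8, 11.4, and 11.9 FPKM, and each control library lay below, with 40.5% of tested genes apart. At 96 h it had 14.5, 13.0, and 15.7 FPKM, between the Hal and the control libraries of that time.

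Against the control, the A03 gene fell by 0.97 at 2 h (adjusted p = 4.76e-07), which is a mean level 2.17 times lower, and 9.37% of tested genes were downregulated. It rose by 1.11 at 48 h (adjusted p = 3.32e-08), to 2.38 times the control level, with 13.9% of tested genes upregulated. It fell by 0.71 at 96 h (adjusted p = 1.40e-05), where the control was 1.68 times higher. These 3 directions were the same with equal totals of reads, and without any single library.

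The C09 and A10 genes did not pass at 2 and 48 h after Pic. BnaC09g31260D had 29.6, 26.95, and 26.4 FPKM at 2 h (-0.07, adjusted p = 0.700) and 23.4, 22.5, and 23.7 at 48 h (-0.23, adjusted p = 0.105). The value at 48 h passed without the 48 h control library of replicate 1 (-0.31, adjusted p = 0.0367). BnaA10g09090D had 24.9, 23.0, and 21.6 FPKM at 2 h (-0.08, adjusted p = 0.663) and 17.2, 15.5, and 18.1 at 48 h (-0.22, adjusted p = 0.124).

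At 96 h after Pic, all 3 genes were below the control libraries, as Pic libraries of 55.6% of tested genes lay entirely above or below them. BnaC09g31260D had 27.98, 23.2, and 28.2 FPKM and fell by 0.57 (adjusted p = 8.50e-05). BnaA10g09090D had 25.3, 23.6, and 26.0 FPKM and fell by 0.70 (adjusted p = 1.12e-05). Together with the A03 gene, 3 of 3 genes were downregulated, where 26.4% of tested genes were. With equal totals of reads the call for the C09 gene was lost (-0.11, adjusted p = 0.332), while the median of all genes moved from -0.01 to 0.28.

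**Figure D2:**
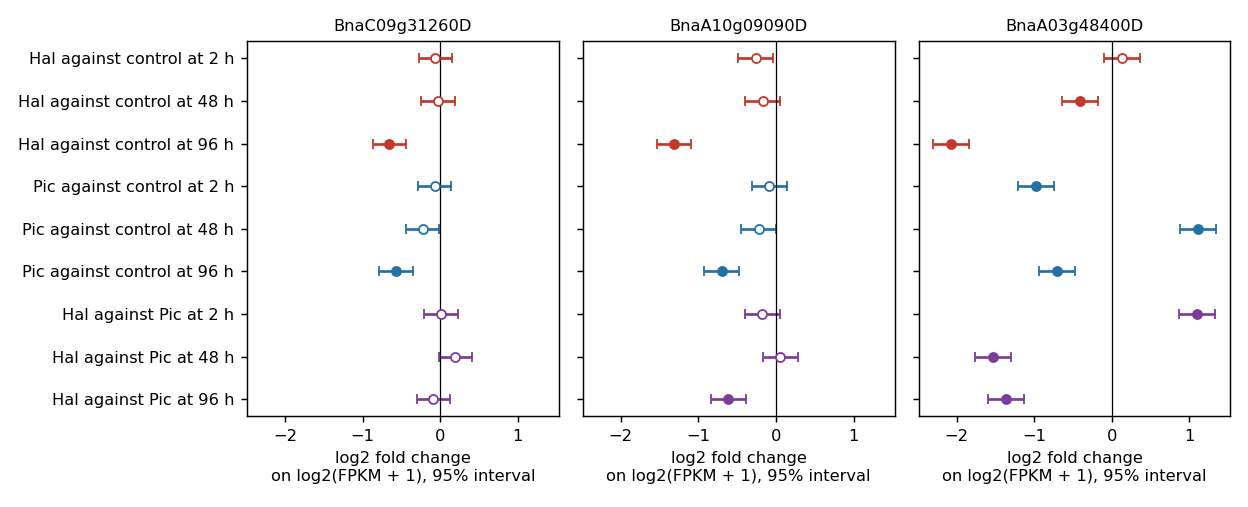
Log2 fold change on log2(FPKM + 1) with its 95% interval (x axis) of the tryptophan synthase genes in 9 comparisons (y axis); filled points passed an adjusted p of 0.05. BnaA03g48400D passed in 8 of them and changed direction with time after Pic (-0.97, 1.11, and -0.71), while the C09 gene passed in 2 and lost both with equal totals of reads (-0.03 and -0.11).

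Compared directly, Hal and Pic differed for the A03 gene at each time. It was 2.40 times higher after Hal at 2 h (1.10, adjusted p = 8.40e-08), where 20.3% of tested genes differed. It was 3.43 times higher after Pic at 48 h (-1.52, adjusted p = 1.34e-10), with 31.4% of tested genes, and 2.89 times higher after Pic at 96 h (-1.36, adjusted p = 3.96e-10), with 45.0%. The libraries of both herbicides did not overlap at any of the 3 times, which held for 31.1%, 45.7%, and 54.8% of tested genes at 2, 48, and 96 h. The A10 gene was lower after Hal at 96 h (-0.61, adjusted p = 5.56e-05), where the Hal libraries reached 19.9 FPKM and the Pic libraries began at 23.6.

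No difference between the herbicides was found for the A10 gene at 2 h (-0.18, 95% interval from -0.40 to 0.05) and at 48 h (0.06, 95% interval from -0.17 to 0.28). For the C09 gene none was found at 2 h (0.01, 95% interval from -0.21 to 0.23), at 48 h (0.19, from -0.02 to 0.41), or at 96 h (-0.09, from -0.30 to 0.13). With equal totals of reads the C09 value of 48 h was 0.35 and passed (adjusted p = 0.00548), and those of 2 and 96 h turned to -0.0014 and 0.09 without passing.

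It was also tested whether the response to a herbicide, as the difference from the control, changed between harvests. From 48 to 96 h the response to Hal became lower for 3 of 3 genes, by 0.63 for BnaC09g31260D (adjusted p = 0.00252), 1.15 for BnaA10g09090D (adjusted p = 4.25e-06), and 1.66 for BnaA03g48400D (adjusted p = 2.33e-08), and 14.5% of tested genes did so. The mean FPKM of the Hal libraries themselves was 26.7 and 24.8 for the C09 gene, 17.6 and 16.2 for the A10 gene, and 3.32 and 4.98 for the A03 gene at 48 and 96 h. The control means over the same interval went from 27.4 to 39.7, from 20.0 to 41.2, and from 4.77 to 24.2.

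The response to Pic changed most for the A03 gene, by 2.09 from 2 to 48 h (adjusted p = 4.33e-10, 9.65% of tested genes higher) and by -1.82 from 48 to 96 h (adjusted p = 5.90e-09, 15.6% lower). Its Pic libraries went from a mean of 4.70 to 11.4 and 14.4 FPKM, while the control went from 10.2 to 4.77 and 24.2. The A10 gene passed from 48 to 96 h (-0.48, adjusted p = 0.0229), but not with equal totals of reads (-0.23, adjusted p = 0.242). The call was also lost without replicate 3 of the 48 h control (-0.42, adjusted p = 0.0614), replicate 3 of Pic at 48 h (-0.43, adjusted p = 0.0605), or replicate 2 of Pic at 96 h (-0.44, adjusted p = 0.0532). From 2 to 48 h the response of the A03 gene to Hal changed by -0.54 (adjusted p = 0.00926, 19.6% of tested genes lower), which did not pass with equal totals of reads (-0.25, adjusted p = 0.200) or with the compared libraries alone (adjusted p = 0.0536). The C09 response to Pic from 48 to 96 h changed by -0.34 (adjusted p = 0.0855) and passed without replicate 2 of the 48 h control (-0.43, adjusted p = 0.0328).

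Ordered by mean FPKM, the control of 96 h was first for all 3 genes and did not overlap with the next group. The other 8 groups formed a chain for the C09 gene, from 29.1 ± 1.35 (control at 2 h, SD, n = 3) down to 23.2 ± 0.599 (Pic at 48 h), in which each group overlapped with the next. The same held for the A10 gene, from 25.0 ± 1.25 (Pic at 96 h) to 16.2 ± 3.29 (Hal at 96 h). For the A03 gene, 4 of 8 neighbouring groups were apart. No share over all tested genes was worked out for this order. In the comparisons of 2 groups, 31.1% to 64.0% of tested genes had no overlap, so lack of overlap is common. The control at 96 h (24.2 ± 0.214) was followed by Pic at 96 h (14.4 ± 1.33), then by Pic at 48 h, Hal at 2 h, and the control at 2 h (11.4 ± 0.548 to 10.2 ± 0.472), then by Hal at 96 h, the control at 48 h, and Pic at 2 h (4.98 ± 0.328 to 4.70 ± 0.292), and last by Hal at 48 h (3.32 ± 0.532). The highest group mean was 1.71, 2.55, and 7.29 times the lowest for the C09, A10, and A03 gene.

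**Figure D3:**
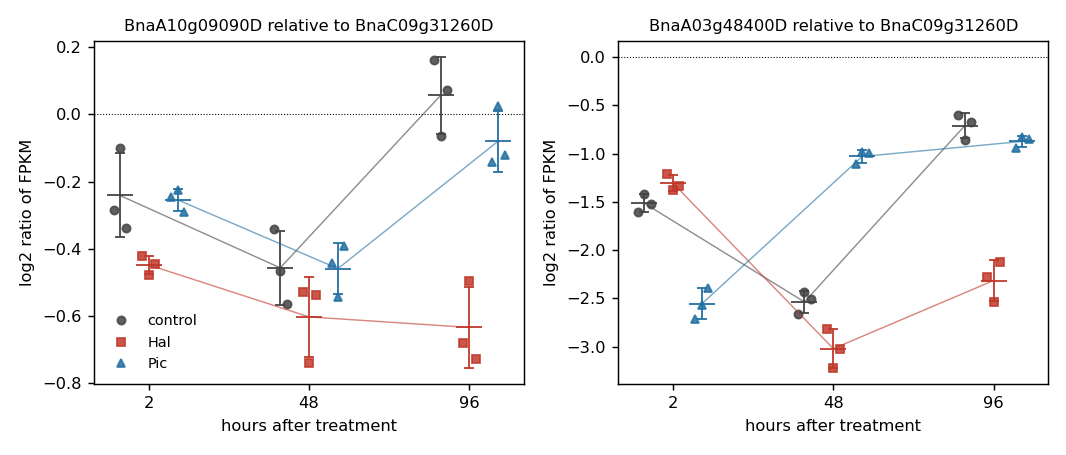
Log2 ratio of the FPKM of BnaA10g09090D (left) and BnaA03g48400D (right) to that of BnaC09g31260D (y axis) against hours after treatment (x axis), per library with mean and SD (n = 3). A ratio within a library does not depend on the scaling between libraries; after Pic the A03 ratio went from -2.56 at 2 h to -1.03 at 48 h, and after Hal from -1.31 to -3.02.

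A ratio of 2 genes within a library does not depend on how libraries are scaled, so it was used to compare the copies with each other. Relative to the C09 gene, BnaA10g09090D was at a log2 FPKM ratio of -0.24, -0.46, and 0.06 in control leaves of 2, 48, and 96 h. It was at -0.45, -0.60, and -0.63 after Hal and at -0.25, -0.46, and -0.08 after Pic, with SDs between 0.028 and 0.13. At 96 h the Hal libraries reached from -0.73 to -0.50 and the control libraries from -0.07 to 0.16, without overlap. The A10 and C09 genes were thus at nearly equal levels in control leaves of 96 h, and the A10 gene was the lower one in Hal leaves.

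The A03 gene relative to the C09 gene was at -1.51, -2.54, and -0.71 in control leaves, at -1.31, -3.02, and -2.32 after Hal, and at -2.56, -1.03, and -0.87 after Pic. It was lower than the C09 gene in each library. Its share of the FPKM summed over the 3 genes was 15.9%, 9.14%, and 23.0% in control leaves, 18.9%, 6.96%, and 10.8% after Hal, and 8.46%, 22.1%, and 21.9% after Pic.

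The summed level itself was 63.9 ± 0.790, 52.2 ± 6.45, and 105 ± 4.53 FPKM in control leaves (SD, n = 3). After Hal it was 59.6 ± 6.35, 47.6 ± 2.62, and 46.0 ± 6.01 FPKM, and after Pic 55.5 ± 3.15, 51.5 ± 2.11, and 65.8 ± 5.36 FPKM. At 48 h the ranges of all 3 treatments overlapped, and at 2 h the Pic libraries reached 59.0 FPKM while the control began at 63.2. At 96 h the control libraries began at 101 FPKM, the Pic libraries reached from 59.7 to 69.9, and the Hal libraries reached 52.9.

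The described genes with the most similar pattern over the 27 libraries were found by Pearson's r on log2(FPKM + 1), given as a description, since all genes share libraries and scaling. For BnaC09g31260D they were BnaAnng08830D, an adenosylhomocysteinase (r = 0.904), which recycles the product of methyl transfer, and the beta-amylases BnaCnng71190D (0.838) and BnaA08g05660D (0.836), which act in starch breakdown. For BnaA10g09090D they were BnaA04g11280D, a 6-phosphogluconate dehydrogenase of the pentose phosphate pathway (r = 0.906), BnaA10g29070D, a xyloglucan endotransglucosylase/hydrolase of the cell wall (0.896), and again BnaAnng08830D (0.894). For BnaA03g48400D they were BnaC04g49410D, a 6,7-dimethyl-8-ribityllumazine synthase of riboflavin synthesis (r = 0.890), BnaC01g40380D, a subunit of the H/ACA ribonucleoprotein (0.831), and BnaC01g38270D, a phosphoglycerate kinase (0.817).

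On the scaffolds of these genes, most other tested genes had other values in some comparisons, but not in all. The 20 tested neighbours of BnaA03g48400D had a median log2 fold change of 0.05 at 48 h after Pic, and none reached its value of 1.11. At 96 h after Hal their median was -0.41, and 19 of 20 had a larger value than -2.07. Of these neighbours 10 were downregulated there, where 30.2% of tested genes were. The gene stood out less at 96 h after Pic, where 6 of 20 neighbours had a smaller value (median -0.34). At 48 h after Hal, 9 of 20 had a smaller value (median -0.34). For BnaA10g09090D, 63 of 65 neighbours had a larger value at 96 h after Hal, with a median of 0.04. For BnaC09g31260D, 27 of 32 neighbours had a larger value at this time after Hal, with a median of -0.07.

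Upstream of tryptophan, the genes listed for the shikimate pathway were mostly lower at 48 and 96 h. The list was formed by description and domain and held 20 genes, of which 19 were tested. These include 9 genes listed only by the shikimate kinase domain, 2 of them described as gluconokinase and the others without a functional description. The numbers and medians of the list include these genes, and its steps are given apart below. At 48 h after Hal, 14 of 19 were downregulated and 0 upregulated with a median of -0.58, and at 96 h 13 were downregulated and 3 upregulated with a median of -1.20. The other genes of the list did not pass. After Pic, 13 were downregulated and 0 upregulated at 48 h (median -0.40), and 10 and 3 at 96 h (median -0.33). At 2 h, 4 were downregulated and 1 upregulated after Hal, and 3 and 1 after Pic. The medians of all tested genes lay between -0.01 and 0.01. Of these genes, 11.4%, 25.1%, and 30.2% were downregulated after Hal and 9.37%, 17.9%, and 26.4% after Pic at 2, 48, and 96 h. Upregulated were 10.1%, 23.3%, and 29.1% after Hal and 10.7%, 13.9%, and 22.2% after Pic.

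The first enzyme of the pathway, DAHP synthase (phospho-2-dehydro-3-deoxyheptonate aldolase), had 4 genes, of which 3 were downregulated at 48 h after Hal. The lowest value was that of BnaA01g34720D, which fell by 1.78 (SE 0.08, adjusted p = 4.59e-15) from 59.1 ± 7.13 to 16.4 ± 0.343 FPKM (SD, n = 3). At 96 h, 2 were downregulated and 2 upregulated after Hal. After Pic BnaCnng59540D, also a DAHP synthase, was upregulated at 96 h by 0.63 (adjusted p = 0.00306).

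The shikimate kinase domain SKI was carried by 9 genes, but 2 of these were described as gluconokinase, an enzyme of another pathway. BnaC04g44410D, with this domain, fell by 2.65 at 96 h after Hal (SE 0.08, adjusted p = 2.00e-18), from 89.0 ± 5.43 to 13.4 ± 1.29 FPKM. BnaA01g05540D fell at 2 h after Hal by 0.92 (adjusted p = 1.88e-06), and after Pic by 0.54 at 2 h (adjusted p = 0.00116) and 1.21 at 96 h (adjusted p = 6.64e-09). BnaC01g00420D fell by 1.54 at 48 h after Pic (adjusted p = 1.56e-08). In the other direction, BnaCnng13770D rose by 1.08 at 96 h after Hal (adjusted p = 4.95e-05), from 0.950 ± 0.561 to 3.01 ± 0.489 FPKM, and BnaA06g32580D rose by 0.25 at 2 h after Pic (adjusted p = 0.0404).

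Of 4 tested genes of EPSP synthase, the target of glyphosate, 4 were downregulated at 48 h (median -0.97) and 4 at 96 h (median -1.32) after Hal, and 3 and 3 after Pic (medians -0.39 and -0.37). One of them, BnaC03g25260D, was upregulated by 0.32 at 2 h after Hal (adjusted p = 0.0383), a call that was lost with the replicate number as a block. Both chorismate synthase genes, the last step before the branch to tryptophan, were downregulated at 48 and 96 h after Hal (medians -0.73 and -0.93) and at 48 h after Pic (median -0.66). Neither passed at 96 h after Pic (median 0.06).

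**Figure D4:**
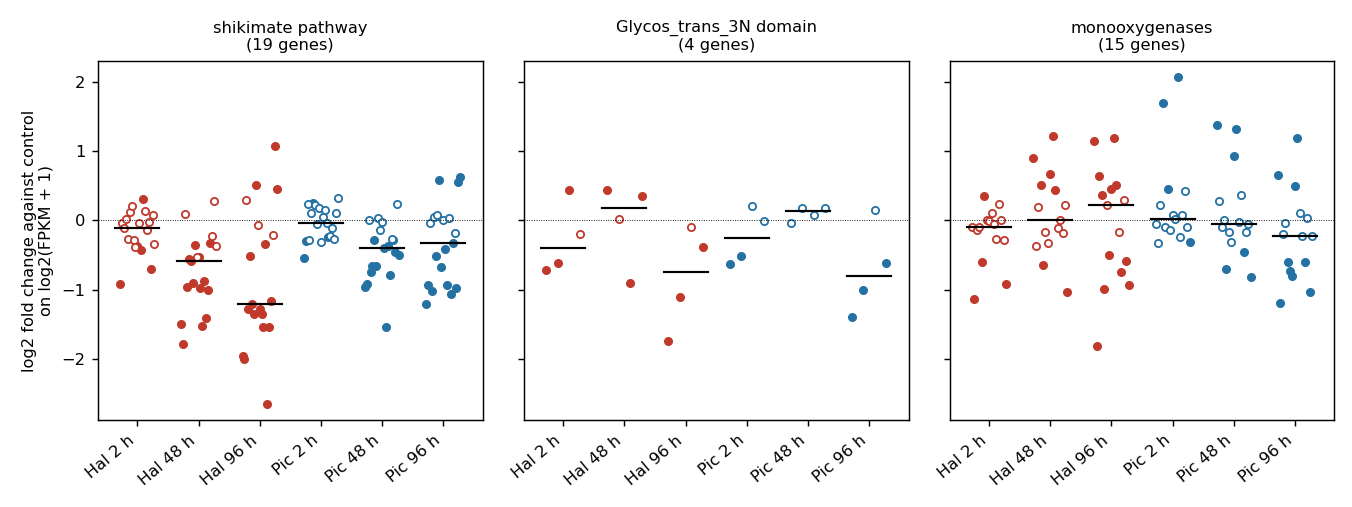
Log2 fold change against the control on log2(FPKM + 1) (y axis) of single genes in 6 comparisons (x axis), for the shikimate pathway, for the phosphoribosyltransferase domain Glycos_trans_3N, and for the other flavin-containing monooxygenases. Monooxygenase genes that reached the filter through treated groups alone are drawn too, and were bound to be high there. Filled points passed an adjusted p of 0.05 and lines are medians; the shikimate medians were -0.58 and -1.20 at 48 and 96 h after Hal, values that depend on the scaling between libraries.

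Between chorismate and tryptophan, the list held 7 genes besides the members. Of these, 3 were the tryptophan synthase genes at or near zero named above, which were not tested. The 4 tested genes were found by the domain Glycos_trans_3N of anthranilate phosphoribosyltransferase. They carry no functional description, so their place at this step rests on the domain alone. After Hal, 1 was upregulated and 2 downregulated at 2 h, 2 and 1 at 48 h, and 0 and 3 at 96 h. After Pic, 0 and 2, 0 and 0, and 0 and 3 passed. Of all tested genes, 10.1%, 23.3%, and 29.1% were upregulated after Hal at 2, 48, and 96 h, and 11.4%, 25.1%, and 30.2% downregulated. After Pic the shares were 10.7%, 13.9%, and 22.2% upregulated and 9.37%, 17.9%, and 26.4% downregulated. BnaA02g03850D was at 7.42 ± 0.0924, 4.81 ± 1.21, and 14.1 ± 0.112 FPKM in control leaves of 2, 48, and 96 h, highest at 96 h as were the tryptophan synthase genes. It fell by 1.74 after Hal (SE 0.14, adjusted p = 9.10e-11) to 3.53 ± 0.360 FPKM and by 1.40 after Pic (adjusted p = 1.38e-08) to 4.75 ± 0.438 FPKM at 96 h. At 2 h it fell by 0.72 after Hal (adjusted p = 4.30e-04) and by 0.63 after Pic (adjusted p = 0.00160), and at 48 h it rose by 0.44 after Hal (adjusted p = 0.0114). BnaC02g07710D went the other way, with 0.44 at 2 h (adjusted p = 0.0369) and -0.90 at 48 h after Hal (adjusted p = 1.98e-05). Its call at 2 h was lost with the replicate number as a block.

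Over the 3 lists of pathway genes without the members, equal totals of reads changed the balance, as they did over all tested genes. The genes called up include monooxygenase genes that reached the filter through treated groups alone and were bound to be high there. At 48 h after Hal the numbers were 7 up and 17 down as deposited and 11 up and 12 down with equal totals, and at 96 h they were 9 up and 22 down against 14 up and 16 down. All tested genes went from 10828 up and 11658 down to 18354 up and 6998 down at 48 h after Hal, and from 13516 up and 13999 down to 23964 up and 7491 down at 96 h. After Pic the pathway numbers were 3 up and 16 down against 5 up and 9 down at 48 h, and 6 up and 19 down against 12 up and 12 down at 96 h, while all tested genes went from 6460 up and 8311 down to 10456 up and 5065 down and from 10277 up and 12262 down to 19019 up and 5853 down. At 2 h after Pic the pathway numbers were 4 up and 6 down against 5 up and 4 down. The 3 genes called up at 2 h after Hal, BnaC03g25260D, BnaC02g07710D, and BnaA09g47360D, rest on adjusted p-values near the threshold. Without any single library of this comparison, 0 or 1 of that number was left.

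**Figure D5:**
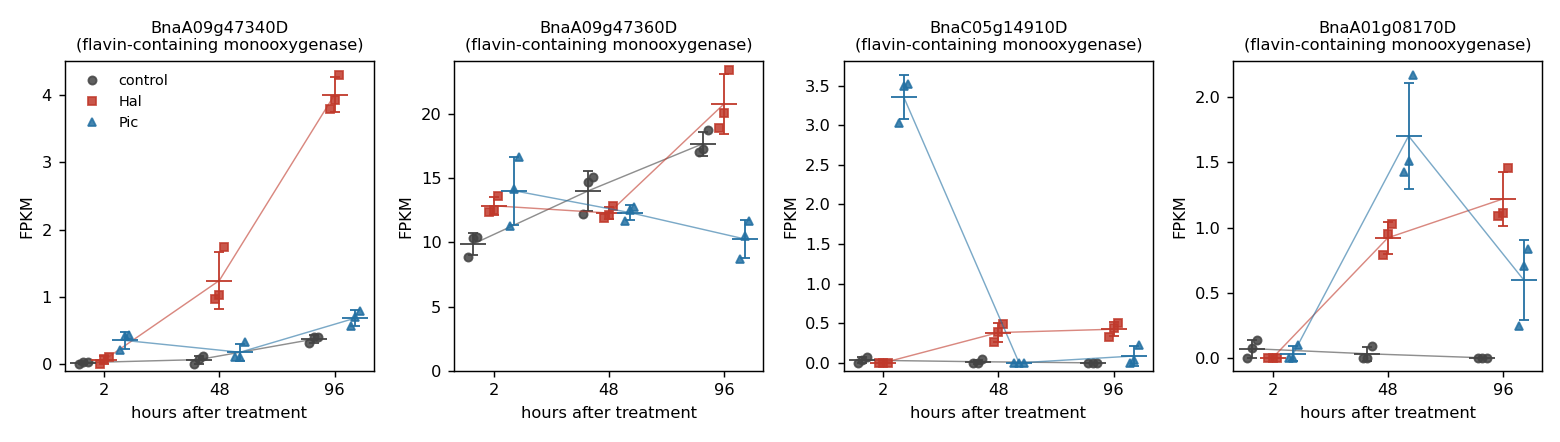
FPKM (y axis) of BnaA09g47340D and 3 other flavin-containing monooxygenase genes against hours after treatment (x axis), for control, Hal, and Pic, with mean and SD (n = 3) and the libraries of a group drawn from lowest to highest. BnaA09g47340D reached 3.79 to 4.29 FPKM at 96 h after Hal, its neighbour BnaA09g47360D was above 8 FPKM in each library, and BnaC05g14910D reached 3.35 FPKM at 2 h after Pic.

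The flavin-containing monooxygenase gene BnaA09g47340D was nearly silent in control leaves and highest at 96 h after Hal. In control leaves it had 0, 1, and 1 reads at 2 h (0, 0.0312, and 0.0333 FPKM), 2, 0, and 3 reads at 48 h (0.0812, 0, and 0.117 FPKM), and 7, 10, and 9 reads at 96 h (0.306, 0.404, and 0.401 FPKM). After Hal it had 3, 3, and 0 reads at 2 h (0.0990, 0.0817, and 0 FPKM), 34, 53, and 29 reads at 48 h (1.03, 1.74, and 0.962 FPKM), and 159, 135, and 134 reads at 96 h (4.29, 3.79, and 3.93 FPKM). The level after Hal at 96 h was above that at 48 h in each library, and that at 48 h was above each library of all other groups.

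A count of 0 reads allows up to 3 reads, which is 0.0959 FPKM in the control of 2 h, 0.128 FPKM in the control of 48 h, and 0.0969 FPKM in the Hal library of 2 h, for counting error alone. The control and Hal groups of 2 h and the control of 48 h can thus not be told apart at this depth.

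After Pic, BnaA09g47340D had 0.206, 0.421, and 0.427 FPKM at 2 h, 0.102, 0.321, and 0.105 at 48 h, and 0.560, 0.785, and 0.704 at 96 h, from 3 to 24 reads. These libraries were not used to choose the gene, so the Pic times were tested against each other. The gene was among the tested ones only through its Hal libraries. From 48 to 96 h in Pic leaves it rose by 0.52 on log2(FPKM + 1) (SE 0.13, adjusted p = 0.00396), where 12.8% of tested genes rose. Control leaves rose too over this interval, by 0.36, and the Pic difference from the control changed by 0.16, both given without a test. The rise is thus not particular to Pic leaves. From 2 to 48 h in Pic leaves the gene changed by -0.20 (SE 0.13, adjusted p = 0.230), with 39.8% of tested genes called in either direction. In the order of means, Hal at 96 h (4.00 ± 0.260, SD, n = 3), Hal at 48 h (1.24 ± 0.430), Pic at 96 h (0.683 ± 0.114), and the control at 96 h (0.370 ± 0.0555) did not overlap with one another. The gene was chosen for its Hal levels, and 31.1% to 64.0% of tested genes had no overlap in comparisons of 2 groups. The next 5 groups, from Pic at 2 h (0.351 ± 0.126) to the control at 2 h (0.0215 ± 0.0187), each overlapped with the next one.

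The described genes with the pattern nearest to that of BnaA09g47340D were BnaC07g13050D, a carbonic anhydrase (r = 0.972 over 27 libraries), BnaC04g08280D, a glycosyltransferase (0.935), and BnaCnng27780D, a pyruvate, phosphate dikinase (0.925). These r values include the Hal libraries for whose rise BnaA09g47340D was chosen, so they largely restate that choice. Of all described genes tested, 1.81% had an r above 0.8 with it. The share was 0.190%, 0.713%, and 0.0713% for the C09, A10, and A03 genes of tryptophan synthase. Those were taken by description, so the shares are not like for like.

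BnaA09g47360D, another flavin-containing monooxygenase gene, lies 9239 bases away on the same scaffold and was expressed in all groups. Its mean was 9.85 ± 0.882, 13.99 ± 1.54, and 17.7 ± 0.938 FPKM in control leaves and 12.8 ± 0.682, 12.3 ± 0.498, and 20.8 ± 2.33 FPKM after Hal. It rose by 0.35 at 2 h after Hal (adjusted p = 0.0349) and had values of -0.17 and 0.22 at 48 and 96 h (adjusted p = 0.244 and 0.120). The call at 2 h after Hal was lost with the replicate number as a block. After Pic this gene rose by 0.45 at 2 h (adjusted p = 0.00699) and fell by 0.74 at 96 h (adjusted p = 1.70e-05).

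In the table, 47 genes were described as flavin-containing monooxygenase and 66 had this description or the domain FMO-like. Of these 66 genes 16 were tested, and 9 had a higher mean FPKM than BnaA09g47340D. The list of steps from tryptophan to auxin held no other tested gene, since a tryptophan N-monooxygenase gene did not reach the filter. Among the 15 tested without BnaA09g47340D, 1 was upregulated and 3 downregulated at 2 h after Hal, 5 and 2 at 48 h, and 6 and 6 at 96 h. After Pic the numbers were 3 and 1, 3 and 3, and 3 and 6. In all tested genes 10.1%, 23.3%, and 29.1% were upregulated after Hal and 10.7%, 13.9%, and 22.2% after Pic. Downregulated were 11.4%, 25.1%, and 30.2% after Hal and 9.37%, 17.9%, and 26.4% after Pic. Genes that reached the filter through treated groups alone were bound to be high there, so their upregulated calls are no finding. Besides the genes of the next paragraph, these included BnaA10g23400D and BnaA06g08330D, at most 0.468 and 0.489 FPKM in any control library. The counts thus do not describe the family as a whole.

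The genes BnaC05g14910D, BnaA06g13350D, BnaC01g09750D, and BnaA01g08170D reached the filter through treated groups alone, so their levels are given as a description without a test. BnaC05g14910D had 3.35 ± 0.277 FPKM at 2 h after Pic against a mean of 0.0342 ± 0.0345 in the control, and was listed at 0 in all Hal libraries of 2 h and all Pic libraries of 48 h. BnaA06g13350D, chosen after its values were seen, had 2.30, 2.43, and 2.96 FPKM at 2 h after Pic against 0.0918 ± 0.0714 in the control. The other two were high late after both herbicides. BnaC01g09750D had 1.49 ± 0.362 and 1.32 ± 0.0688 FPKM at 48 and 96 h after Hal and 1.71 ± 0.680 and 1.33 ± 0.199 FPKM after Pic, while the control means were 0.0606 ± 0.0526 and 0.0159 ± 0.0276. BnaA01g08170D had 0.921 ± 0.121 and 1.22 ± 0.207 FPKM at 48 and 96 h after Hal and 1.70 ± 0.407 and 0.597 ± 0.310 FPKM after Pic, with 0.0307 ± 0.0532 FPKM in the control of 48 h, and was listed at 0 in all control libraries of 96 h.

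Other genes of this family fell. BnaC09g13360D fell at 48 h by 1.04 after Hal (adjusted p = 4.16e-09) and by 0.82 after Pic (adjusted p = 5.35e-07), from 19.3 ± 1.84 FPKM in the control to 8.86 ± 0.245 and 10.5 ± 0.669 FPKM. It fell by 0.31 at 2 h after Pic (adjusted p = 0.0296). BnaA03g40090D fell by 1.14 at 2 h (adjusted p = 9.55e-05) and 1.81 at 96 h after Hal (adjusted p = 1.43e-08), and by 1.19 at 96 h after Pic (adjusted p = 1.64e-05), from 3.79 ± 0.743 FPKM in the control of 96 h to 0.354 ± 0.0557 and 1.11 ± 0.472 FPKM.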

How the data were processed

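The authors deposited 1 table of FPKM values for 104573 genes in 27 libraries (9 groups of 3). The submitters' processing notes name CASAVA, HISAT2, StringTie, DESeq2, edgeR, and GATK, and the genome build was not given in the sources used here. Deposited FPKM times gene length gave whole reads for 100% of values (tolerance 0.1), so reads and depth could be worked back. log2(FPKM + 1) of 46395 genes (FPKM of at least 1 in at least 3 libraries) was fitted in limma 3.58.1 (R 4.3.3) with a variance trend over all 9 groups, and p-values (two-sided) were Benjamini-Hochberg adjusted with a threshold of 0.05. The fit was run on simulated data in which only genes with a mean above 100 reads were changed. That run gives no measure for genes with few reads, such as BnaA09g47340D. P-values weigh a difference against the spread between samples, as estimated over all 9 groups, and intervals cover that spread only.

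The members and the gene lists were chosen with earlier results of these data known. Named are the members, for each the 3 described genes with the highest r, and in each list and herbicide comparison the called genes with the largest and the smallest fold change. Lists came from words in the descriptions and from domain names. Alternatives were a pseudocount of 0.1, no filter or an FPKM of at least 5, other scalings, voom on the worked-back reads, the compared libraries alone, a block for the replicate number, a minimum log2 fold change of 1, and each library left out.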

Additional observations from a re-analysis of the deposited data

Results flagged for a closer look

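For the tryptophan synthase genes, 7 of 12 tests of a change in the herbicide response between harvests passed (limma, adjusted p under 0.05), which means that the difference from the control was not the same at both times. For Hal from 48 to 96 h these were BnaC09g31260D with -0.63 (adjusted p = 0.00252), BnaA10g09090D with -1.15 (adjusted p = 4.25e-06), and BnaA03g48400D with -1.66 (adjusted p = 2.33e-08), where 14.5% of all tested genes passed as lower. For Hal from 2 to 48 h it was BnaA03g48400D with -0.54 (adjusted p = 0.00926), with 19.6% of tested genes lower. For Pic from 48 to 96 h they were BnaA10g09090D with -0.48 (adjusted p = 0.0229) and BnaA03g48400D with -1.82 (adjusted p = 5.90e-09), with 15.6% lower, and for Pic from 2 to 48 h BnaA03g48400D with 2.09 (adjusted p = 4.33e-10), with 9.65% higher. Each pair of harvests shares 1 set of control libraries between both herbicides, so the values for Hal and Pic are not independent of each other. Both intervals of the same herbicide also share the treated and control libraries of 48 h, with opposite signs. The changes of BnaA03g48400D after Pic, 2.09 and -1.82, are thus not separate results.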

How the results depend on the processing

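Of 1054 values under the alternatives, for 86 results, 960 were counted as kept. Tested values were kept if they held their direction and their side of the threshold. Levels and copy ratios were kept if they moved by less than the replicate spread. Numbers of pathway genes were kept if their ratio to the main number stayed within a limit, so kept numbers could still differ. By these rules, a pseudocount of 0.1, voom on the worked-back reads, and median-ratio scaling over the tested genes changed none of the results they were run for. The deposited values already carry a median-ratio scaling. The factors of this alternative were 1.01 to 1.05, so it could hardly change a result. A minimum log2 fold change of 1 changed 25 of 59 results. With equal totals of reads, the C09 gene BnaC09g31260D turned to 0.34 at 48 h after Hal, and its values at 96 h became -0.027 after Hal and -0.11 after Pic. Hal against Pic became -0.0014, 0.35, and 0.086 at 2, 48, and 96 h, the control of 48 against 2 h -0.43, and the change of response from 2 to 48 h 0.38 for Hal and 0.028 for Pic. BnaA10g09090D became 0.20 at 48 h after Hal, and its changes of response were 0.44 (Hal, 2 to 48 h), 0.038 (Pic, 2 to 48 h), and -0.23 (Pic, 48 to 96 h). BnaA03g48400D became -0.10 at 48 h after Hal, with a change of response from 2 h of -0.25. Mean FPKM of BnaA09g47340D at 96 h became 0.285 in control and 4.84 in Hal leaves. The cause was not tested.

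With the compared libraries alone, calls were lost for BnaA10g09090D in control leaves of 48 against 2 h (-0.29, also without a filter) and for BnaA03g48400D at 48 h after Hal (-0.41) and for its change from 2 h (-0.54). A minimum log2 fold change of 1 removed calls by its construction. For BnaC09g31260D these were -0.66 and -0.57 at 96 h after Hal and Pic, 0.52 in the control of 96 against 48 h, and -0.63 for the Hal change from 48 to 96 h. For BnaA10g09090D they were -0.70 at 96 h after Pic, -0.61 for Hal against Pic at 96 h, -0.29 for the control, and -0.48 for the Pic change from 48 to 96 h. For BnaA03g48400D they were -0.41 at 48 h after Hal, -0.97 and -0.71 at 2 and 96 h after Pic, -0.97 for the control of 48 against 2 h, and -0.54 for the Hal change from 2 to 48 h, and for BnaA09g47340D 0.52 in Pic leaves of 96 against 48 h.

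Leaving out each library in turn gave these ranges for results that changed side or sign. BnaC09g31260D ranged after Hal between -0.14 and 0.016 for 2 h, and between -0.12 and 0.060 for 48 h. Its ranges were from -0.31 to -0.13 at 48 h after Pic, from -0.069 to 0.089 for Hal against Pic at 2 h, from -0.18 to 0.00033 in the control of 48 against 2 h, from -0.056 to 0.12 for the Hal change from 2 to 48 h, and from -0.43 to -0.25 for the Pic change from 48 to 96 h. BnaA10g09090D ranged from -0.0033 to 0.11 for Hal against Pic at 48 h, from -0.38 to -0.24 in the control of 48 against 2 h, and from -0.56 to -0.42 for the Pic change from 48 to 96 h. The pathway genes called higher ranged from 0 to 1 at 2 h after Hal and from 2 to 4 at 2 h after Pic, and those called lower from 3 to 5 at 2 h after Pic.

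Numbers of pathway genes called higher against the control (3, 7, and 9 at 2, 48, and 96 h after Hal, and 4, 3, and 6 after Pic) became 11 and 15 at 48 and 96 h after Hal and 7, 7, and 10 after Pic without a filter. They became 2 and 1 at 48 and 96 h after Hal and 2, 0, and 1 after Pic with an FPKM of at least 5, 11 and 14 after Hal and 5 and 12 at 48 and 96 h after Pic with equal totals, and 2 at 2 h after Pic with the compared libraries alone. With this minimum fold change they became 0, 1, and 3 after Hal and 2 and 1 at 2 and 96 h after Pic. Those called lower (9, 17, and 22 after Hal, 6, 16, and 19 after Pic) became 1, 5, and 14 after Hal and 0, 1, and 7 after Pic with it, 9 and 12 at 48 and 96 h after Pic with equal totals, and 10 at 2 h after Pic without a filter.

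Replicate numbers did not pair the samples: deviations of libraries with the same number correlated at -0.21 to 0.11, with 1 of 27 pairs above 0.1. With the replicate number as a block, pathway genes called higher at 2 h after Hal went from 3 to 0, and 58 of 59 results were counted as kept. Depth limits BnaA09g47340D, which had at most 10 reads per control library.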
